A study of Mus musculus with 40 samples.

Results

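The genes described here make, load, take up, break down or sense GABA, the main inhibitory transmitter of the brain. They are Gad1, Gad2, Slc32a1, Slc6a11, Abat, Gabbr1 and Gabbr2, and they were chosen by gene symbol. All 7 had 1 row each among the 19505 named genes of the array, and all 7 passed the filter on dim genes that left 14978 genes to test. RNA came from amygdala, cerebellum, hippocampus, prefrontal cortex and striatum of mice aged 8 to 10 weeks on a C56BL/6 background, as the labels spell it, kept at room temperature on chow. The animals carried either alanine (genotype Ala92D2HY, Ala below) or threonine (Thr92D2HY, Thr below) at residue 92 of the type 2 deiodinase, encoded by Dio2, which turns thyroxine into active thyroid hormone. With 5 regions and both genotypes there were 10 groups of 4 arrays. Which arrays came from the same animal is not labelled. The p-values therefore describe array-to-array spread, which may be technical.

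Glutamate decarboxylase makes GABA from glutamate in inhibitory neurons, and the vesicular transporter loads it into synaptic vesicles. After release, GABA is cleared by membrane transporters of neurons and astrocytes and broken down by GABA transaminase. The GABA-B receptor is a G protein coupled receptor built from 2 different subunits. One subunit binds GABA, the other carries the complex to the cell surface and engages the G protein, which opens potassium channels and closes calcium channels. Most striatal neurons and the Purkinje cells of the cerebellum are GABA neurons, while in cortex, hippocampus and basolateral amygdala they are a minority among glutamatergic cells.

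RefSeq promoter windows (GRCm38.p6, 250 bases before to 50 after the start) were at hand for 6 of the 7 genes. They are printed for the genes whose levels moved together or apart between regions. Lower case is plain sequence, and capitals mark the words searched on both strands: the homeodomain word TAATTA, the nuclear receptor word AGGTCA, the TATA box word TATAAA and the E-box word CANNTG, none of which overlapped another here. The glutamate decarboxylase and vesicular transporter genes came first, with Gad1 at chr2:70561879-70562178, Gad2 at chr2:22622077-22622376 and Slc32a1 at chr2:158610508-158610807, all on the plus strand.
Gad1: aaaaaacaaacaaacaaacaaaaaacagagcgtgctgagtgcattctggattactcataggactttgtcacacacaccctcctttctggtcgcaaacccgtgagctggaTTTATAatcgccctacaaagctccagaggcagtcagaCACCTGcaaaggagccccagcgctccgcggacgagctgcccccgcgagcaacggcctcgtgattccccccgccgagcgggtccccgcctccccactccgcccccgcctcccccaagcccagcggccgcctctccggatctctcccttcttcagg
Gad2: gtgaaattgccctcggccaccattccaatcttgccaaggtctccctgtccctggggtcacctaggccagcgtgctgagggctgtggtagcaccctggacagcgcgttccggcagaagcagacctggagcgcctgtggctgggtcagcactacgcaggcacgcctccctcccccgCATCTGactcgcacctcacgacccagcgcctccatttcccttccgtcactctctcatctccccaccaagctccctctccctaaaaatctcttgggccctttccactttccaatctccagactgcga
Slc32a1: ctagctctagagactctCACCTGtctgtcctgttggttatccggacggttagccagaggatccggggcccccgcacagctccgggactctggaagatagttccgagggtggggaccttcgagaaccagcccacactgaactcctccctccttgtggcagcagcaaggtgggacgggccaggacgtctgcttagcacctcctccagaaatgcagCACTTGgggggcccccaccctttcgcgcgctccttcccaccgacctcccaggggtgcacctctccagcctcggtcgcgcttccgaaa
Slc6a11, the membrane transporter, lay at chr6:114130991-114131290 on the plus strand.
Slc6a11: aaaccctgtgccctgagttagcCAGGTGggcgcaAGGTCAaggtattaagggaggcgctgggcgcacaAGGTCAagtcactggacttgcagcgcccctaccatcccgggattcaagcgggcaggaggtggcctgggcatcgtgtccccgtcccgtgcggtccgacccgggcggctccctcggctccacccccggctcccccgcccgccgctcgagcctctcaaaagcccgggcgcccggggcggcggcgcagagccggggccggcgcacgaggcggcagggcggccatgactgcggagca
The receptor subunit genes had their windows at chr17:37045716-37046015 on the plus strand for Gabbr1 and at chr4:46991665-46991964 on the minus strand for Gabbr2.
Gabbr1: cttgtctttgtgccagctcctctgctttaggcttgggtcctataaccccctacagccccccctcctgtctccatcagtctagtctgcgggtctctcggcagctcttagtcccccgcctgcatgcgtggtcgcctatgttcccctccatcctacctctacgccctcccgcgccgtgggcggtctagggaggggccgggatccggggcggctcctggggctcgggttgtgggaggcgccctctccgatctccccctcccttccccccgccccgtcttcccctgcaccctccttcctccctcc
Gabbr2: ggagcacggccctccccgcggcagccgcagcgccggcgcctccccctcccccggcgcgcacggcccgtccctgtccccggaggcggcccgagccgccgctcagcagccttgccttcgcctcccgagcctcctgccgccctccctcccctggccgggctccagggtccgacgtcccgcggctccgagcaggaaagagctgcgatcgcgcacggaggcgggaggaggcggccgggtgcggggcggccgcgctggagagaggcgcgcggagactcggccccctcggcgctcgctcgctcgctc
The AGGTCA word, the hexamer that many nuclear receptors bind, was in 1 of the 6 windows, that of Slc6a11, where it stood 2 times. That share of windows was near the 16.3% of all 32851 windows that hold it at least 1 time. CANNTG was found in the windows of Gad1, Gad2, Slc32a1 and Slc6a11 and in neither receptor window, a share near the 72.3% of all windows. TATAAA was found 1 time, on the opposite strand of the Gad1 window (13.6% of all windows), and TAATTA in none of the 6 (5.29% of all windows). The base composition differed, with 80.3% G and C in the Gabbr2 window and 67.3% in the Gabbr1 window, against 60.0% for Gad1, 61.3% for Gad2, 63.3% for Slc32a1, 72.3% for Slc6a11 and a median of 52.7% over all windows. A match of letters is a description of these windows and shows no binding.

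Values are the authors' log2 RMA intensities, so a difference of 1 is a 2-fold change, and a level is compared between samples for 1 gene but never between genes. The lowest value of any of the 7 genes on any array was 9.64, above the medians of the negative control rows, which lay between 5.73 and 6.35. Marker lists went with the region labels for striatum, where 10 of 10 striatal projection neuron markers were higher than in the other regions, and for cerebellum, where 6 of 6 Purkinje cell markers were. In prefrontal cortex all 7 olfactory bulb markers tested were higher, by 2.29 for Trh up to 5.57 for Cdhr1 on the log2 scale. A list score is the mean of a list's genes after each gene is centred over the 40 arrays. The olfactory bulb score of the prefrontal cortex arrays ran from 1.41 to 4.87, against -1.93 to -0.09 on all other arrays. One amygdala array, Ala replicate 1, had a striatal projection neuron score of 2.01, while the other amygdala arrays had -1.30 to -0.08. Thr hippocampus replicates 23 and 24 had thalamus marker scores of 1.89 and 1.11, while the other 6 hippocampus arrays had -1.31 to -0.69. In whole tissue, fewer cells of a type and less RNA per cell cannot be told apart.

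**Figure D1:**
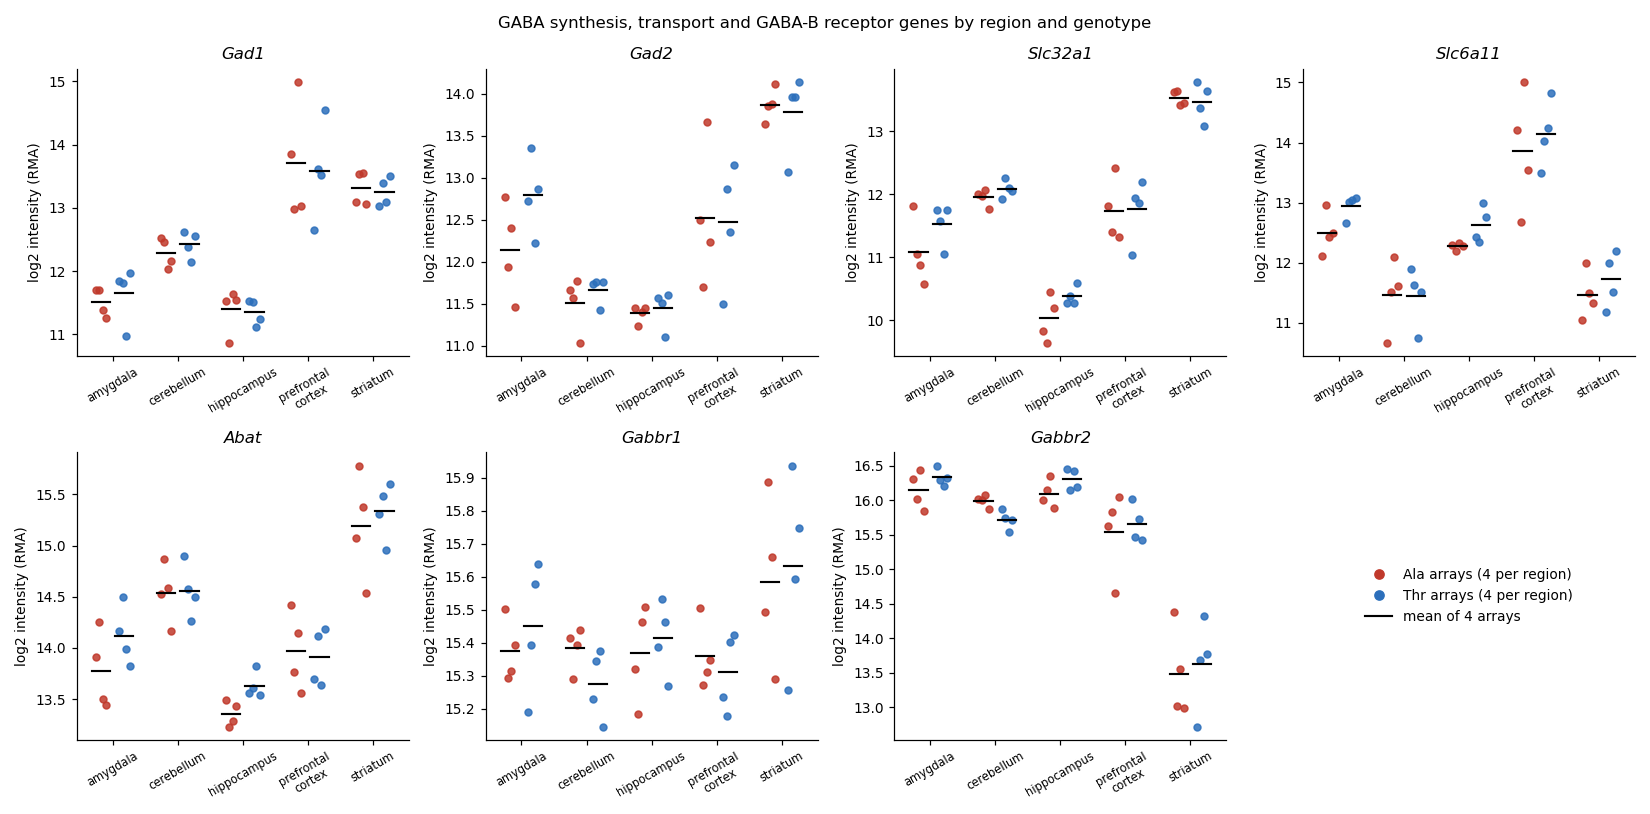
Log2 RMA intensity of each gene on every array, by region, with Ala (red) left of Thr (blue) and a black line at the mean of 4 arrays; each panel has its own vertical scale. Gabbr2 lay at 12.72 to 14.38 on the striatum arrays and at 14.66 or above on all others, while Gabbr1 stayed between 15.15 and 15.94 everywhere.

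The striatum stood farthest from the other regions. Measured against the mean of the other 4 regions, 6 of the 7 genes were called there (adjusted p under 0.05 and an absolute log2 difference of at least 1), against 10.9% of all genes tested. The genes for making, loading and breaking down GABA were higher: Gad1, Gad2, Slc32a1 and Abat (4 of 7, against 5.71% of all genes called higher). Slc6a11 and Gabbr2 were lower (2 of 7, against 5.20% of all genes called lower). The median difference of the 7 genes was 1.04, and that of all genes tested was -0.0009. In the hippocampus 3 of 7 were called, against 5.91% of all genes, and all 3 were lower (2.34% of all genes): Gad1, Gad2 and Slc32a1. In the prefrontal cortex 2 of 7 were called, against 5.21% of all genes, and both were higher (3.28%): Gad1 and Slc6a11. The amygdala had 1 call of 7, Gad1, which was lower (5.84% of all genes called, 2.44% lower). The cerebellum had 1 call of 7, Slc6a11, which was lower (18.7% of all genes called, 10.1% lower), so the share there was near the background.

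**Figure D2:**
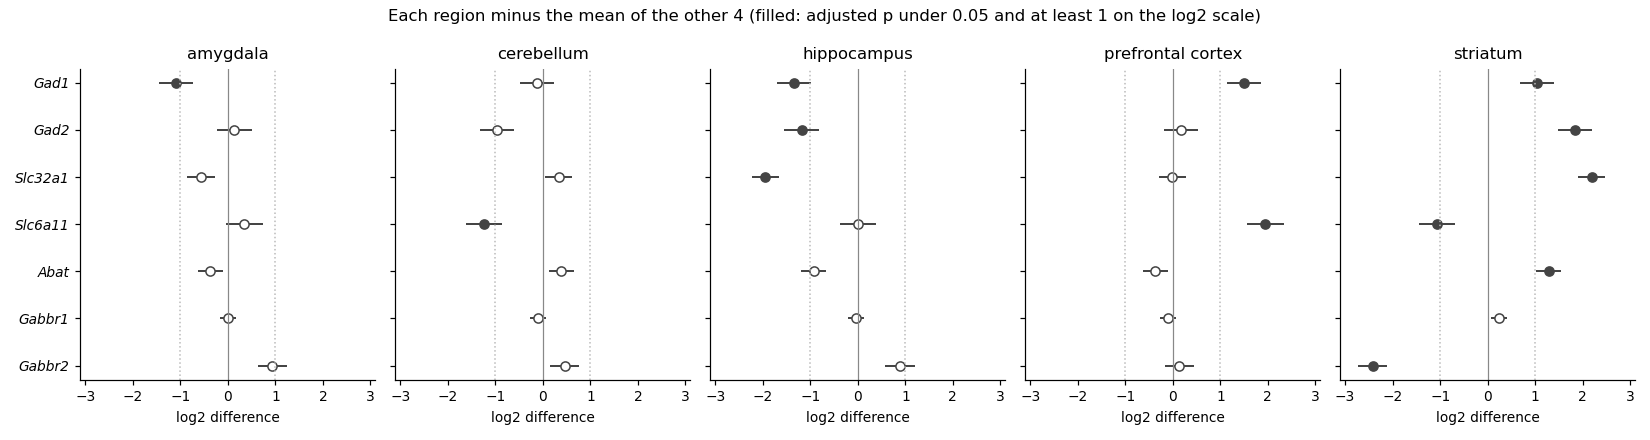
Log2 difference of each region from the mean of the other 4, with 95% confidence intervals from the limma fit over 40 arrays; filled points passed both thresholds and dotted lines mark a difference of 1. The striatum panel holds 4 filled points above 0 and 2 below it, and Gabbr1 lies close to 0 in every panel.

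Gad1 encodes the isoform of glutamate decarboxylase that supplies most of the basal GABA of a neuron. Its levels (lowest, median and highest of 8 arrays) were 12.66, 13.56 and 15.00 in prefrontal cortex, 13.03, 13.24 and 13.56 in striatum, 12.03, 12.42 and 12.61 in cerebellum, 10.98, 11.70 and 11.97 in amygdala, and 10.87, 11.52 and 11.64 in hippocampus. The arrays of prefrontal cortex and striatum all lay above every array of the other 3 regions. Against the mean of the others, Gad1 was higher by 1.50 ± 0.17 (SE, limma, adjusted p = 1.96e-09) in prefrontal cortex and by 1.04 ± 0.17 (adjusted p = 1.72e-06) in striatum. It was lower in hippocampus, at -1.35 ± 0.17 (adjusted p = 1.84e-08), and in amygdala, at -1.08 ± 0.17 (adjusted p = 1.66e-06). Without Thr amygdala replicate 7 the amygdala difference was -0.97, and without Thr striatum replicate 40 the striatum difference was 0.9994, so both ended just under the fold threshold. Neighbours in the order that did not differ past the threshold were prefrontal cortex and striatum (0.37 ± 0.21, adjusted p = 0.194) and amygdala and hippocampus (0.21 ± 0.21, adjusted p = 0.615). Leaving out Thr prefrontal cortex replicate 29, the lowest of that region, put prefrontal cortex above striatum by 0.52 (adjusted p = 0.0461).

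Gad2 encodes the membrane-bound isoform, found mainly in nerve endings. Its levels were 13.07, 13.92 and 14.15 in striatum, 11.50, 12.43 and 13.67 in prefrontal cortex, 11.47, 12.57 and 13.36 in amygdala, 11.04, 11.70 and 11.77 in cerebellum, and 11.10, 11.45 and 11.60 in hippocampus. Striatum was highest, with 6 of its 8 arrays above every array of the other regions. Gad2 was higher in striatum than in the mean of the others by 1.84 ± 0.17 (adjusted p = 6.01e-12), a 3.57-fold difference. In hippocampus it was lower, at -1.18 ± 0.17 (adjusted p = 4.65e-07). The cerebellum value of -0.96 ± 0.17 was just under the fold threshold, and it passed without Ala cerebellum replicate 11 (-1.01) or without Thr prefrontal cortex replicate 29 (-1.004). Prefrontal cortex and amygdala differed by 0.03 ± 0.22 (adjusted p = 0.952), and cerebellum and hippocampus by 0.17 ± 0.22 (adjusted p = 0.540).

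Slc32a1 encodes the vesicular inhibitory amino acid transporter, which fills vesicles with GABA or glycine. It had the widest range of the 7 genes over regions, a span of 3.30 between the highest and lowest region means. The levels were 13.08, 13.54 and 13.79 in striatum, 11.77, 12.03 and 12.26 in cerebellum, 11.04, 11.84 and 12.42 in prefrontal cortex, 10.58, 11.31 and 11.81 in amygdala, and 9.64, 10.26 and 10.58 in hippocampus. All 8 striatum arrays lay above all 32 others. The striatum was higher by 2.18 ± 0.13 (adjusted p = 1.19e-17), a 4.54-fold difference, and the hippocampus was lower, at -1.94 ± 0.13 (adjusted p = 2.21e-15). Cerebellum and prefrontal cortex differed by 0.27 ± 0.17 (adjusted p = 0.182), and prefrontal cortex and amygdala by 0.45 ± 0.17 (adjusted p = 0.0612). Prefrontal cortex and amygdala passed the threshold without Ala amygdala replicate 1, Ala prefrontal cortex replicates 26 or 28, or Thr prefrontal cortex replicate 29, with amygdala minus prefrontal cortex at -0.57, -0.50, -0.52 and -0.57. Cerebellum and prefrontal cortex passed without Ala prefrontal cortex replicate 27, with cerebellum minus prefrontal cortex at 0.38.

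The 3 genes did not keep step across regions. The log2 ratio of 2 genes within an array has an arbitrary zero and is compared here only between regions, with two-sided exact permutation tests of 8 arrays against 8 and adjustment over all 30 such tests. The smallest p that this design allows is 0.000155, which is 0.000333 after adjustment. Gad1 over Gad2 averaged 1.15 ± 0.25 in prefrontal cortex, 0.77 ± 0.25 in cerebellum, -0.04 ± 0.22 in hippocampus, -0.55 ± 0.32 in striatum and -0.89 ± 0.46 in amygdala (SD, n = 8 arrays each). Of the 10 pairs of regions 9 differed past the adjusted threshold, and amygdala and striatum did not (-0.34, exact p = 0.110, adjusted p = 0.122). That pair passed without Ala amygdala replicate 2 (-0.43) or replicate 4 (-0.44). Gad1 over Slc32a1 averaged 1.90 ± 0.38 in prefrontal cortex, 1.17 ± 0.32 in hippocampus, 0.34 ± 0.26 in cerebellum, 0.28 ± 0.31 in amygdala and -0.22 ± 0.31 in striatum. Here too 9 of 10 pairs passed, all but amygdala and cerebellum (-0.06, exact p = 0.685). Both ratios were highest in prefrontal cortex, and Gad1 over Slc32a1 was lowest in striatum. The 2 ratios share Gad1, so they are not independent. All prefrontal cortex arrays carried olfactory bulb markers (score 1.41 to 4.87), and the part of these markers in the ratios was not tested.

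**Figure D3:**
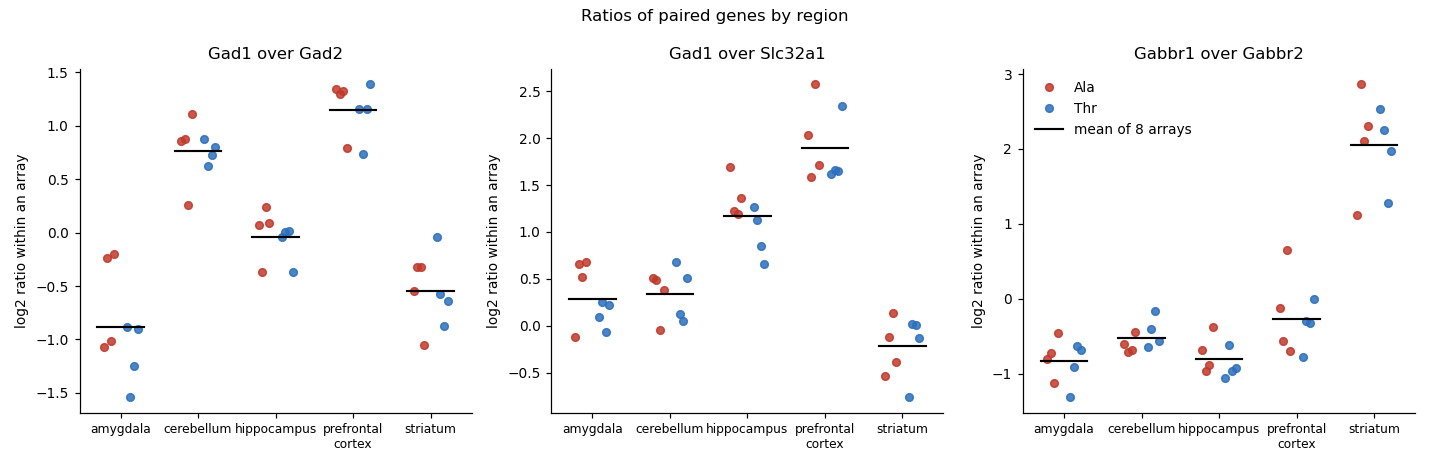
Log2 ratio of paired genes within each array, by region, with Ala (red) left of Thr (blue) and a black line at the mean of 8 arrays. Gabbr1 over Gabbr2 was 1.11 to 2.87 on the striatum arrays and 0.65 or below on all others.

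Slc6a11 encodes a plasma membrane GABA transporter that in rodent forebrain is found mainly on astrocytes. Its levels were 12.68, 14.11 and 15.01 in prefrontal cortex, 12.11, 12.81 and 13.08 in amygdala, 12.19, 12.34 and 13.00 in hippocampus, 11.04, 11.50 and 12.20 in striatum, and 10.67, 11.56 and 12.10 in cerebellum. Prefrontal cortex was higher by 1.95 ± 0.18 (adjusted p = 2.09e-11), a 3.86-fold difference. Cerebellum was lower, at -1.23 ± 0.18 (adjusted p = 1.55e-07), and so was striatum, at -1.07 ± 0.18 (adjusted p = 4.30e-06). The striatum value was at -0.9972 without Ala striatum replicate 33 and at -0.98 without Thr striatum replicate 37, under the fold threshold both times. With every prefrontal cortex array left out, neither was called, with -0.80 in cerebellum and -0.62 in striatum. The astrocyte marker score was lowest in striatum (-0.62 to -0.20), next in prefrontal cortex (-0.55 to -0.04) and highest in cerebellum (0.34 to 0.81). In prefrontal cortex 9 of its 10 genes lay below the mean of the other regions (median -0.33). The part of these markers in the levels of Slc6a11 was not tested. Amygdala and hippocampus differed by 0.27 ± 0.23 (adjusted p = 0.523), and striatum and cerebellum by 0.13 ± 0.23 (adjusted p = 0.653).

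Abat encodes GABA transaminase, the mitochondrial enzyme that starts GABA breakdown. The levels were 14.54, 15.34 and 15.78 in striatum, 14.16, 14.55 and 14.89 in cerebellum, 13.44, 13.95 and 14.50 in amygdala, 13.56, 13.94 and 14.42 in prefrontal cortex, and 13.23, 13.52 and 13.82 in hippocampus. The 7 highest values of the 40 arrays were all from striatum. Abat was higher there by 1.28 ± 0.12 (adjusted p = 6.10e-12), a 2.43-fold difference, and the hippocampus value of -0.93 ± 0.12 was just under the fold threshold. Prefrontal cortex and hippocampus differed by 0.44 ± 0.15 (adjusted p = 0.0320). That call was lost when any of 9 single arrays was left out, hippocampus replicates 18, 19, 21, 22 or 24 or prefrontal cortex replicates 25, 27, 30 or 32, with hippocampus minus prefrontal cortex between -0.44 and -0.37. Without the 2 hippocampus arrays with the highest thalamus score it was also lost (-0.47, adjusted p = 0.0538), as was amygdala against hippocampus (0.47, adjusted p = 0.0593, against 0.45 and adjusted p = 0.0340 with all arrays). The call of amygdala against hippocampus was likewise lost when any of 9 single arrays was left out (0.37 to 0.51 over all single omissions). Amygdala and prefrontal cortex differed by 0.01 ± 0.15 (adjusted p = 0.987).

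Gabbr1 encodes the GABA-B subunit that binds the ligand. Its region means spanned only 0.28, the narrowest span of the 7 genes, with 15.26, 15.63 and 15.94 in striatum, 15.19, 15.39 and 15.64 in amygdala, 15.18, 15.43 and 15.53 in hippocampus, 15.18, 15.33 and 15.50 in prefrontal cortex, and 15.15, 15.36 and 15.44 in cerebellum. The ranges of all 5 regions overlapped. Striatum was above the mean of the others by 0.24 ± 0.07 (adjusted p = 0.00728), past the p threshold and well under the fold threshold. No neighbours in the order differed past the threshold, except that striatum and amygdala did when replicate 36 (Ala) or 37 (Thr) of striatum was left out (amygdala minus striatum -0.24 and -0.26). Cerebellum minus striatum (-0.28, adjusted p = 0.0113) and prefrontal cortex minus striatum (-0.27, adjusted p = 0.0207) passed it, and the call against prefrontal cortex was lost when replicate 34 (Ala) or 38 (Thr) of striatum was left out (prefrontal cortex minus striatum -0.22 both times).

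Gabbr2 encodes the subunit that couples to the G protein, and it behaved differently from its partner. On the 8 striatum arrays its level was 14.38, 13.02, 13.55 and 12.98 in Ala mice and 12.72, 13.68, 14.32 and 13.78 in Thr mice. The lowest, median and highest elsewhere were 15.85, 16.31 and 16.51 in amygdala, 15.89, 16.18 and 16.45 in hippocampus, 15.54, 15.88 and 16.08 in cerebellum, and 14.66, 15.68 and 16.04 in prefrontal cortex. All striatum arrays lay below all others. Gabbr2, and Slc32a1 in the opposite direction, were the 2 of 7 genes whose striatum arrays did not overlap the other regions, against 3.34% of all genes tested. Gabbr2 was lower in striatum, at -2.42 ± 0.14 (adjusted p = 5.20e-18), which is 5.36-fold. The nearest region, prefrontal cortex, was above striatum by 2.05 ± 0.18 (adjusted p = 1.75e-12). Among the other 4 regions no neighbours differed past the threshold. Amygdala and hippocampus were 0.94 ± 0.14 and 0.89 ± 0.14 above the mean of the others, just under the fold threshold, but that mean includes striatum. Against single regions, amygdala was above striatum by 2.69, prefrontal cortex by 0.64, cerebellum by 0.39 (adjusted p = 0.0671) and hippocampus by 0.04. Hippocampus was above striatum by 2.65, prefrontal cortex by 0.60 and cerebellum by 0.35 (adjusted p = 0.109).

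Gabbr1 over Gabbr2 set the striatum apart from the other regions. The log2 ratio averaged 2.05 ± 0.60 in striatum, -0.27 ± 0.46 in prefrontal cortex, -0.53 ± 0.19 in cerebellum, -0.81 ± 0.23 in hippocampus and -0.83 ± 0.28 in amygdala (SD, n = 8 arrays each). The striatum differed from each other region by at least 2.32 with no overlap of arrays (exact permutation p = 0.000155, adjusted p = 0.000333, each). Since Gabbr2 alone already separated all striatum arrays from the others and Gabbr1 region means spanned only 0.28, this mostly restates the Gabbr2 difference. It is no separate result. Of the 10 pairs of regions 8 passed the threshold. Amygdala and hippocampus (-0.02, exact p = 0.883) and cerebellum and prefrontal cortex (-0.26, exact p = 0.151) did not.

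Within striatum, Gabbr2 moved with markers of glutamatergic neurons from array to array. The 2 arrays with the highest glutamatergic score, Thr replicate 39 (-0.13) and Ala replicate 33 (-0.30), had the highest Gabbr2, at 14.32 and 14.38. The 3 with the lowest score, Thr replicate 37 (-3.003) and Ala replicates 34 (-2.89) and 36 (-2.47), had the lowest, at 12.72, 13.02 and 12.98. Of the 7 glutamatergic markers tested, 5 were lower in striatum than in the other regions, led by Slc17a7 at -4.79, while Nrgn was higher by 2.48 and Camk2a was not called at 0.75. Means of Slc17a6 and Neurod2 in striatum, 5.72 and 4.86, were lower than any negative control median. The cerebellum had a score as low, -3.15 to -1.06, with Gabbr2 at 15.54 to 16.08. The part of these markers in the striatal level of Gabbr2 was not tested.

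In prefrontal cortex the olfactory bulb markers moved with Gad1, Slc6a11, Gad2 and Slc32a1. Over Ala replicates 25 to 28 the olfactory bulb score was 3.52, 1.41, 4.87 and 2.67, and over Thr replicates 29 to 32 it was 1.89, 3.83, 3.13 and 4.44. On the same arrays Gad1 was 13.84, 12.99, 15.00 and 13.03 in Ala and 12.66, 13.61, 13.52 and 14.55 in Thr mice. Slc6a11 was 14.20, 12.68, 15.01 and 13.55 in Ala and 13.50, 14.03, 14.23 and 14.83 in Thr mice. Gad2 was 12.50, 11.70, 13.67 and 12.24 in Ala and 11.50, 12.87, 12.36 and 13.16 in Thr mice, and Slc32a1 was 11.81, 11.40, 12.42 and 11.32 in Ala and 11.04, 11.95, 11.87 and 12.20 in Thr mice. The 2 arrays with the highest score, Ala replicate 27 and Thr replicate 32, had the highest Gad2 and Slc32a1 of the region and the highest Gad1 and Slc6a11 of all 40 arrays, and they had the lowest Gabbr2 of the region, 14.66 in Ala replicate 27 (the lowest outside striatum) and 15.43 in Thr replicate 32. The part of these markers in the levels of the 5 genes was not tested.

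Without these 2 arrays, an alternative chosen after seeing the data, Gad1 and Slc6a11 were still called in prefrontal cortex. They were above the mean of the others by 1.13 and 1.64. The prefrontal cortex arrays kept had olfactory bulb scores of 1.41 or above, against -0.09 or below on arrays of other regions. This alternative thus does not remove those markers, and their part in the 2 calls was not tested. Prefrontal cortex Gad1 was then level with striatum (-0.01 against 0.37 with all arrays, adjusted p = 0.983). Its Gad2 difference from the mean of the others changed sign, at -0.13 against 0.17, with no call either way. The amygdala call of Gad1 (-0.99) and the striatum call of Slc6a11 (-0.99) both ended just under the fold threshold without them. Gabbr2 no longer differed past the threshold between amygdala and prefrontal cortex (0.46, adjusted p = 0.0833) or hippocampus and prefrontal cortex (0.42, adjusted p = 0.103; 0.45 and adjusted p = 0.0558 without Ala replicate 27 alone). Markers of forebrain interneurons were highest in prefrontal cortex too (9 of 15 called higher and 2 lower, score 0.68 to 1.20) and lower in hippocampus (1 higher, 4 lower, score -0.74 to -0.10). Their part in the levels of Gad1 was not tested.

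**Figure D4:**
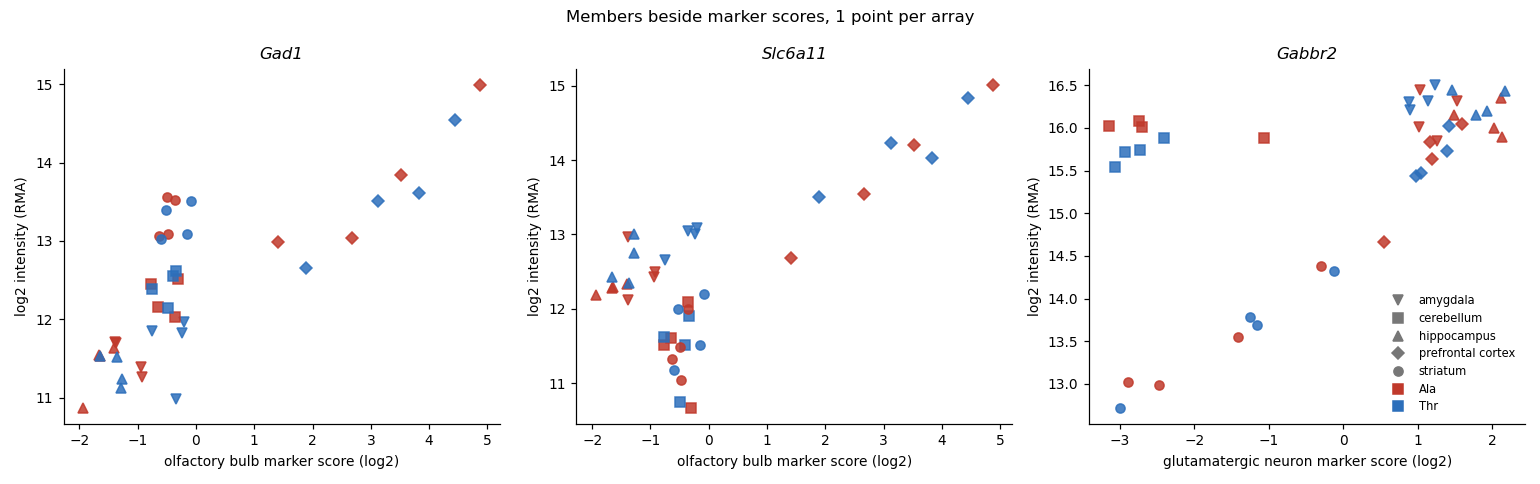
Gad1 and Slc6a11 against the olfactory bulb marker score, and Gabbr2 against the glutamatergic neuron marker score, with 1 point per array, Ala in red, Thr in blue and 1 symbol per region. The prefrontal cortex diamonds rise to the right in the first panels, and the striatum circles do so in the Gabbr2 panel, where the cerebellum squares stay above 15.5 at low scores.

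Between single regions, the count of the 7 genes that passed an adjusted p of 0.05 was 5 for amygdala against cerebellum (53.2% of all genes passed), 3 for amygdala against hippocampus (16.2%), 3 for amygdala against prefrontal cortex (15.5%) and 6 for amygdala against striatum (37.4%). It was 4 for cerebellum against hippocampus (50%), 4 for cerebellum against prefrontal cortex (50.1%) and 6 for cerebellum against striatum (54.0%). Hippocampus against prefrontal cortex had 6 (19.5%), hippocampus against striatum 6 (34.8%) and prefrontal cortex against striatum 6 (33.9%). The order of regions was the same in Ala and in Thr mice for Gad1, Slc32a1 and Gabbr2, whose spans were 2.32, 3.51 and 2.67 in Ala and 2.23, 3.09 and 2.71 in Thr mice. Gad2, Slc6a11 and Abat each exchanged 1 pair of neighbours between genotypes, and these were pairs that did not differ past the threshold. Gabbr1 changed most, with cerebellum next after striatum in Ala mice and last in Thr mice, over spans of 0.22 and 0.36.

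Other genes of the same pathways were listed by function. In striatum, 4 of 17 tested partners and effectors of the GABA-B receptor were higher and 6 were lower (list median -0.21, all genes -0.0009). Kcnj6 and Kcnj3, subunits of the potassium channels that the receptor opens, were lower at -3.90 ± 0.24 and -3.85 ± 0.16, so they moved the same way as Gabbr2. Kcnj3 lay at 8.30 to 10.56 on the striatum arrays and Kcnj6 at 5.17 to 8.50, in part down to the negative control medians. Rgs4, which shortens G protein signals, was higher by 4.13 ± 0.19, and Kctd8, an auxiliary receptor subunit, by 1.33 ± 0.18. Of 8 genes of GABA synthesis, uptake and breakdown, 1 was higher (Pdxk, which makes the decarboxylase cofactor, 1.12 ± 0.11) and 1 lower (the transporter Slc6a13, -1.02 ± 0.25). Of 16 GABA-A receptor and scaffold genes, 3 were higher, led by Gabrg3 (2.90 ± 0.18) and Gabra4 (2.17 ± 0.11), and 3 lower, with Gabra6 and Gabra5 farthest down.

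In hippocampus, where Gad1, Gad2 and Slc32a1 were lowest, 4 of the GABA-B partners were higher, with Kcnj6 at 2.43 ± 0.24 and the G protein subunit Gng2 at 2.33 ± 0.20, and 1 was lower (Kctd8, -1.53 ± 0.18). Gabra5, a GABA-A subunit known for extrasynaptic receptors of hippocampal pyramidal cells, was higher by 4.67 ± 0.32. It was 1 of 3 GABA-A genes called higher there, and 3 were called lower. Of the synthesis and uptake list only Slc1a1, a neuronal glutamate transporter, was called (1.33 ± 0.11).

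Prefrontal cortex had 2 GABA-B partners higher, Rgs4 (1.81 ± 0.19) and Kcnj3 (1.31 ± 0.16), and 1 lower (Kctd8, -1.72 ± 0.18). It had 3 GABA-A genes higher, with Gabra5 at 2.59 ± 0.32 and Gabra3 at 2.38 ± 0.21, and 1 lower, and no call in the synthesis list. In the amygdala 1 synthesis and uptake gene was higher (Slc6a13, 1.10 ± 0.25), and among the GABA-B partners 3 were higher and 2 lower, with Gng2 at 1.96 ± 0.20 and the calcium channel subunit Cacna1a at -1.26 ± 0.11. Gabra3 led the 6 GABA-A genes higher there (3.09 ± 0.21), and 2 were lower. Cerebellum had higher Slc38a1 (2.18 ± 0.11) and Slc38a2 (1.54 ± 0.10), which carry the GABA precursor glutamine, and lower Slc1a1 (-2.68 ± 0.11). Among its GABA-B partners 3 were higher, led by Cacna1a (3.15 ± 0.11) and Kctd8 (2.93 ± 0.18), and 5 lower, led by Rgs4 (-6.50 ± 0.19) and Kctd16 (-5.04 ± 0.16). Cerebellum had 3 GABA-A genes higher and 7 lower. A mean of the others includes any region that lies far out. For Rgs4 in prefrontal cortex and Cacna1a in amygdala it included cerebellum (-6.50 and 3.15), and for Kcnj3 in prefrontal cortex it included striatum. Such calls need not hold against each single region, and the same can apply to other genes of these lists.

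Genes closest in pattern were sought among all tested genes outside the 7. The measure was the root mean square difference between the centred profiles of 10 group means. This was done for each of the 7 genes whose region means spanned at least 1. Closest to Gad1 were Cyp39a1 (0.22), Klhl1 (0.35) and Rragd (0.37), of which Cyp39a1 and Klhl1 had region means no higher than the negative control medians in 3 regions (from 4.99 and 5.15 in hippocampus). Gad2 had Cit (0.11), Sesn3 (0.23) and Gpx1 (0.26), and Slc32a1 had Cdc42ep3 (0.35), Elmo1 (0.37) and Asic1 (0.38). For Slc6a11 they were Ppp1r12b (0.18), Gm48957 (0.27) and Zfp804b (0.30), with region means of 3.11 to 5.09 for Gm48957 and 3.82 to 6.27 for Zfp804b, none above the highest negative control median. The Slc32a1 match Cdc42ep3 was at 6.06 in hippocampus, also within those medians. For Abat they were Akap9 (0.15), Cpsf3 (0.16) and Scrn1 (0.17). Gabbr2 had Vsnl1 (0.20), a neuronal calcium sensor whose region means were 16.01 in striatum and 18.45 to 18.62 elsewhere, then Kcnc4 (0.25) and Schip1 (0.26). Gabbr1 varied too little between regions for this comparison.

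The second comparison was Ala against Thr. None of the 7 genes was called in any region (limma, adjusted p under 0.05), where 0.12% of all genes tested were called in amygdala, 0.0801% in striatum and 0% in cerebellum, hippocampus and prefrontal cortex. None was called in the average over regions (0.02% of all genes), and none in a test of whether the genotype difference varied between regions (0.0401% of all genes). Only Gad2 in amygdala had an unadjusted p under 0.05, which was 1 of 7 there against 5.33% of all genes. In the other regions it was 0 of 7, against 1.94% (cerebellum) to 6.14% (striatum) of all genes. Dio2 itself ran from -0.38 ± 0.21 in cerebellum to 0.32 ± 0.21 in amygdala with no call. Since the genotypes differ there by 1 residue, that level checks no label.

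**Figure D5:**
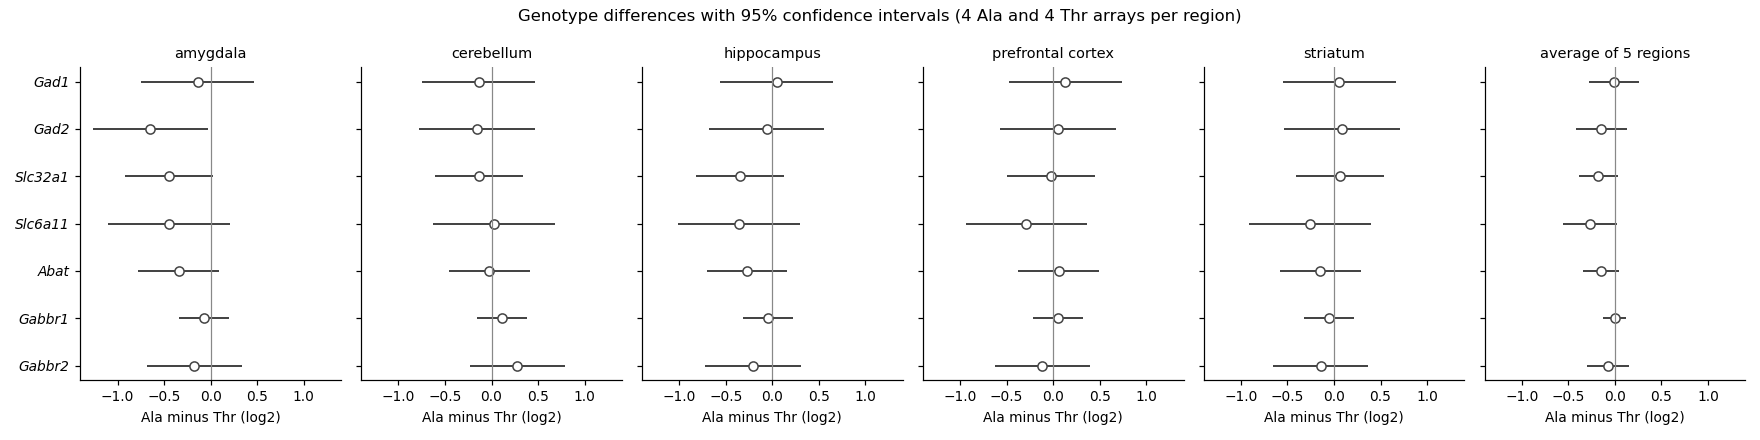
Log2 difference, Ala minus Thr, of each gene in each region and averaged over the 5 regions, with 95% confidence intervals from the limma fit. No gene was called; in amygdala and in the average all 7 points lie below 0.

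In amygdala all 7 genes were on the lower side in Ala mice, with a median difference of -0.35 against 0.01 for all genes tested, of which 48.9% were below 0. Gad2 was 12.77, 11.94, 12.41 and 11.47 in Ala and 12.73, 13.36, 12.22 and 12.86 in Thr mice. The ranges overlapped, and the difference of -0.65 ± 0.31 (95% interval -1.27 to -0.03) did not pass adjustment over all genes (adjusted p = 0.923). Slc32a1 was 11.81, 11.05, 10.87 and 10.58 in Ala and 11.75, 11.57, 11.04 and 11.74 in Thr mice, a difference of -0.45 ± 0.23 (adjusted p = 0.936). Ala replicate 1, the amygdala array with striatal markers, had the highest Gad2 and Slc32a1 of the Ala arrays. Without it the differences were -0.86 for Gad2 (adjusted p = 0.587) and -0.69 for Slc32a1 (adjusted p = 0.480). The remaining genes differed by -0.45 ± 0.32 (Slc6a11), -0.35 ± 0.21 (Abat), -0.18 ± 0.25 (Gabbr2), -0.14 ± 0.30 (Gad1) and -0.07 ± 0.13 (Gabbr1). All 7 olfactory bulb markers and all 7 oligodendrocyte markers tested were also on the lower side in Ala amygdala, with medians of -0.47 and -0.26 and no call. So were 7 of 8 thalamus markers (median -0.22, no call), with scores of -0.87 to -0.64 in Ala and -0.62 to 0.04 in Thr mice. Their part in these values was not tested.

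Hippocampus had 6 of 7 genes on the lower side in Ala mice, with a median of -0.21. For all genes tested the median there was 0.01, and 48.9% were below 0. Slc6a11 was 12.30, 12.19, 12.33 and 12.28 in Ala and 12.42, 12.34, 13.00 and 12.76 in Thr mice, so all Ala arrays lay below all Thr arrays. Abat was 13.49, 13.23, 13.28 and 13.43 in Ala and 13.56, 13.61, 13.82 and 13.54 in Thr mice, again without overlap. These are 2 of 7 genes, against 2.73% of all genes with no overlap in hippocampus, and the differences of -0.36 ± 0.32 and -0.27 ± 0.21 were not called (adjusted p = 1.00 each). Thalamus markers moved the same way, with 7 of 8 on the lower side in Ala hippocampus (median -1.42, no call), and Thr replicates 23 and 24, with the high thalamus scores, had the highest Slc6a11. Without these 2 arrays, an alternative chosen after seeing the data, the difference was -0.11 for Slc6a11 and -0.23 for Abat. The hippocampus calls of Gad1, Gad2 and Slc32a1 against the mean of the other regions held without them, at -1.26, -1.13 and -1.97.

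In cerebellum Gabbr2 was 16.03, 16.00, 16.08 and 15.88 in Ala and 15.88, 15.74, 15.54 and 15.72 in Thr mice, higher on all Ala arrays. It was the only gene of 7 without overlap there (2.66% of all genes), and its difference of 0.28 ± 0.25 was not called. All 6 Purkinje cell markers were also on the higher side in Ala cerebellum (median 0.28, no call), with scores of 6.28 to 6.71 in Ala and 6.19 to 6.42 in Thr mice, and their part in the Gabbr2 value was not tested. Prefrontal cortex and striatum had medians of 0.05 and -0.05 over the 7 genes, and their differences ran from -0.29 ± 0.32 (Slc6a11) to 0.13 ± 0.30 (Gad1) in prefrontal cortex and from -0.26 ± 0.32 (Slc6a11) to 0.09 ± 0.31 (Gad2) in striatum. Averaged over regions, all 7 genes were on the lower side in Ala mice (median -0.15, all genes 0.01, of which 47.2% were below 0). Slc6a11 was farthest at -0.27 ± 0.15 (95% interval -0.56 to 0.03). Gad1 (-0.0085) and Gabbr1 (-0.0021) lay close to 0 there and took either sign when single arrays were left out. The average interval was -0.28 to 0.26 for Gad1 and -0.12 to 0.12 for Gabbr1. The average takes all 40 arrays as independent, so its intervals may be too narrow if regions came from the same animals.

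Of the 41 other GABA genes tested, only Gabrq, a GABA-A receptor subunit, was called between genotypes, at 5.08 in Ala and 7.37 in Thr amygdala (-2.29 ± 0.35, adjusted p = 0.000871). The Ala level lay below all negative control medians, so the size of that difference is uncertain. No gene of the synthesis list or of the GABA-B partner list was called in any region, and the nearest was Gnai2, a G protein subunit, in amygdala (-0.43 ± 0.15, adjusted p = 0.608).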

How the data were processed

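RNA of 5 brain regions from Ala and Thr mice was measured on 40 Affymetrix arrays. The deposited table holds log2 intensities that the authors obtained by RMA, per the submitters' processing notes (version and annotation build not given in the sources used here). This method subtracts background, quantile-normalizes arrays and combines the probes of a transcript. Array medians ranged from 6.12 to 6.32, and nothing was rescaled. The platform annotation gave 19572 of 28846 rows a single symbol, and for 55 of 19505 genes with several rows the row with the highest mean was kept.

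Genes above log2 4.60 (the 30th percentile of all values) on at least 4 arrays were tested, 14978 in all. The 10 group means were estimated in limma 3.58.1 (R 4.3.3, eBayes with a trend), with Benjamini-Hochberg adjustment over all genes tested. Genotype differences and pairs of regions were called at an adjusted p under 0.05, and a region against the mean of the others only if the log2 difference also reached 1 in size. Ratios within an array were compared by exact permutation (numpy 2.4.6). The steps were tested on simulated data. The number of arrays limits the precision. The 7 genes and all lists were chosen with earlier results of these data known. Of other genes, the text names up to 2 per list and direction with the largest called difference, every list gene called between genotypes, and 3 of like pattern. Arrays are named by the numbers 1 to 40 of their labels. Alternatives covered scaling, filter, rows, variance estimate, weights, threshold, arrays in the fit and leaving out each array.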

Additional observations from a re-analysis of the deposited data

Results flagged for a closer look

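Single arrays stood apart in 4 of 70 groups of 4 arrays, about what chance gives, which is 1 in 20 groups. Gad1 was 10.98 on Thr amygdala replicate 7, against 11.82 to 11.97 on the other 3 Thr amygdala arrays. Gad1 was 10.87 on Ala hippocampus replicate 18, against 11.53 to 11.64 on the other Ala hippocampus arrays. Gad2 was 11.42 on Thr cerebellum replicate 15, against 11.74 to 11.76 on the others, and 13.07 on Thr striatum replicate 37, against 13.96 to 14.15. All 4 arrays lay low. Thr striatum replicate 37 also had the lowest Gabbr2 of all 40 arrays (12.72) and the lowest glutamatergic neuron score of the striatum arrays (-3.003), but its Slc32a1 was the highest of all (13.79).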

How the results depend on the processing

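No paired analysis was possible because the labels' replicate numbers are not shared between groups. The alternatives that leave out the prefrontal cortex arrays, 2 of them, or 2 hippocampus arrays were chosen after seeing the data. The number of the 7 genes called in amygdala against the others was 1 as reported, 3 without the fold requirement of 1 (0.5 in its place), 2 with Thr arrays only, 0 without the 2 prefrontal cortex arrays with the highest olfactory bulb score, and 0 to 1 with 1 array left out (0 without Thr replicate 7). In cerebellum it was 1 as reported, 2 at the fold requirement of 0.5, 0 without all prefrontal cortex arrays, and 1 to 2 with 1 array left out (2 without Ala cerebellum replicate 11 or Thr prefrontal cortex replicate 29). In hippocampus it was 3 as reported and 5 at 0.5. Over all genes, 18 were called between genotypes in amygdala, against 11 with a stricter filter, 7 at an adjusted p under 0.01, 5 with the amygdala arrays fitted alone and 6 to 22 with 1 array left out. In striatum 12 were called, against 7, 6, 7 and 7 to 14, and in hippocampus 0, with up to 3 when 1 array (Thr replicate 21) was left out. The cause was not tested.

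None of the differences below, all log2, was called as reported. With array weights, the sign turned for Gad1 Ala minus Thr in prefrontal cortex (-0.017), Gad2 Ala minus Thr in prefrontal cortex (-0.075), Ala minus Thr in striatum (-0.11) and Slc6a11 hippocampus against the others (-0.052). It also turned for Abat Ala minus Thr in cerebellum (0.0032) and amygdala against prefrontal cortex (-0.027). With quantile normalization, the sign turned for Slc32a1 prefrontal cortex against the others (0.021), Slc6a11 hippocampus against the others (-0.0054), Abat amygdala against prefrontal cortex (-0.013) and Gabbr1 cerebellum against prefrontal cortex (0.010). With arrays centred on their median, the sign turned for Gabbr1 cerebellum against prefrontal cortex (0.073). With Ala arrays only, the sign turned for Gad2 amygdala against the others (-0.18), Slc32a1 prefrontal cortex against the others (0.089), Slc6a11 hippocampus against the others (-0.050) and cerebellum against striatum (0.0069). It also turned for Abat amygdala against prefrontal cortex (-0.20), Gabbr1 amygdala against cerebellum (-0.0089), cerebellum against hippocampus (0.016) and cerebellum against prefrontal cortex (0.026). With Thr arrays only, the sign turned for Gad2 amygdala against prefrontal cortex (0.32) and Gabbr1 amygdala against the others (0.042). Without the 2 hippocampus arrays with the highest thalamus score, the sign turned for Gad1 Ala minus Thr in hippocampus (-0.13), Slc6a11 hippocampus against the others (-0.12) and Gabbr1 amygdala against hippocampus (-0.0015). Without prefrontal cortex arrays, the sign turned for Gad1 cerebellum against the others (0.28). Without the 2 prefrontal cortex arrays with the highest olfactory bulb score, the sign turned for Gad1 prefrontal cortex against striatum (-0.0071), Gad2 Ala minus Thr in prefrontal cortex (-0.10), prefrontal cortex against the others (-0.13) and amygdala against prefrontal cortex (0.27). It also turned for Gabbr1 cerebellum against prefrontal cortex (0.0053) and Gabbr2 Ala minus Thr in prefrontal cortex (0.10). Leaving out 1 array at a time gave both signs for Gad1 Ala minus Thr in hippocampus (-0.035 to 0.22), Ala minus Thr in prefrontal cortex (-0.30 to 0.45), Ala minus Thr in striatum (-0.027 to 0.14) and Ala minus Thr over regions (-0.094 to 0.056). Both signs also came for Gad2 Ala minus Thr in prefrontal cortex (-0.33 to 0.33), Ala minus Thr in striatum (-0.15 to 0.20), prefrontal cortex against the others (-0.017 to 0.34) and amygdala against prefrontal cortex (-0.19 to 0.16). The same held for Slc32a1 Ala minus Thr in prefrontal cortex (-0.27 to 0.12), Ala minus Thr in striatum (-0.064 to 0.17), prefrontal cortex against the others (-0.12 to 0.11) and Slc6a11 Ala minus Thr in cerebellum (-0.21 to 0.29). With 1 array left out, both signs came for Slc6a11 Ala minus Thr in prefrontal cortex (-0.67 to 0.11), hippocampus against the others (-0.055 to 0.055), Abat Ala minus Thr in cerebellum (-0.13 to 0.10) and Ala minus Thr in prefrontal cortex (-0.090 to 0.20). Both signs also came for Abat Ala minus Thr in striatum (-0.34 to 0.072), amygdala against prefrontal cortex (-0.073 to 0.081), Gabbr1 Ala minus Thr in hippocampus (-0.092 to 0.017) and Ala minus Thr in striatum (-0.18 to 0.051). The same held for Gabbr1 Ala minus Thr over regions (-0.027 to 0.018), amygdala against the others (-0.034 to 0.040), hippocampus against the others (-0.053 to 0.0005) and amygdala against hippocampus (-0.0094 to 0.065). With 1 array left out, both signs came for Gabbr1 cerebellum against prefrontal cortex (-0.027 to 0.019), Gabbr2 Ala minus Thr in prefrontal cortex (-0.28 to 0.18), Ala minus Thr in striatum (-0.44 to 0.089) and amygdala against hippocampus (-0.0070 to 0.092). Both signs also came for the ratio of Gabbr1 to Gabbr2 amygdala against hippocampus (-0.073 to 0.050).

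Of the values for single genes between regions, 30 lost and 21 gained a call under the alternatives other than leaving out 1 array, and 1360 kept their direction and side of the threshold. With 1 array left out, 25 lost and 16 gained a call, and 4094 kept both. No gene of the 7 gained a genotype call under any alternative run.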
